A study of Mus musculus with 4 samples.

Results

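Early granulocyte-monocyte progenitors were taken here as bone marrow cells with at least 2 Mpo UMIs (unique molecular identifiers, each counting 1 captured transcript) and at least 1 Cd34 UMI. They also had no UMI of Elane, F13a1, Car1, Dntt, Ebf1, Siglech, Pf4 or Mmp8, which mark more advanced or other lineages. Of 37717 cells kept after filtering, 1617 met the rule, or 4.29%. They made up 31.9% of the 5068 kept cells with Mpo and Cd34 at these levels. Because measured transcripts chose the cells, the levels of Mpo and Cd34 and the absence of the 8 other genes are a description of the choice.

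All 6 animals were female mice aged 6 weeks that carried Tppp3CreER and LSLTdTomato, a tamoxifen-inducible Cre driven by the Tppp3 promoter and a Cre-dependent red reporter. In the first group, 2 mice received tamoxifen together with rapamycin, an inhibitor of the mTOR kinase, at postnatal days 0 and 3. In the second group, 2 mice received rapamycin at postnatal day 30 and no tamoxifen; they are called late rapamycin mice here, although the hashing table calls them controls. In the third group, 2 mice received tamoxifen at postnatal days 0 and 3. No group was free of both agents. On each of 2 days, 1 mouse of every treatment was labelled with its own hashtag antibody and pooled into 1 single-cell 3' RNA library, so that the replicate number is the processing day. Wherever a treatment has a pair of values, day 1 stands before day 2.

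Granulocyte-monocyte progenitors arise from multipotent progenitors that carry Cd34, Kit and Flt3, and give rise to neutrophils and monocytes. The transcription factors PU.1 (Spi1) and C/EBPα (Cebpa) drive entry into the myeloid lineage. Transcription of the primary granule proteins starts early on this path: myeloperoxidase (Mpo), then the serine proteases proteinase 3 (Prtn3), cathepsin G (Ctsg) and neutrophil elastase (Elane). Irf8 favours the monocyte and dendritic branch, and Gfi1 and Cebpe the granulocyte branch.

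Each cell was given to a mouse by the barcode its hashtag antibody carried, so these 6 barcodes, printed 5′ to 3′, set which treatment every value below belongs to.
tamoxifen with rapamycin, day 1: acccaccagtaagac
tamoxifen with rapamycin, day 2: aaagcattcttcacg
late rapamycin, day 1: cttgccgcatgtcat
late rapamycin, day 2: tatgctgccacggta
tamoxifen, day 1: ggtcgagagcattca
tamoxifen, day 2: ctttgtctttgtgag
In the hashing table, the combined treatment belongs to hashtags 1 and 4, and tamoxifen alone to hashtags 2 and 5. In the sample labels, mice 1 and 4 had tamoxifen alone and mice 2 and 5 the combined treatment. If those mouse numbers are hashtag numbers, the tamoxifen with rapamycin group and the tamoxifen group below are exchanged. Hashtags 3 and 6 are late rapamycin in both sources.

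The libraries of the 2 days held 25058 and 21409 barcodes with 113535036 and 115505329 gene UMIs. The early progenitors had a median of 5206 UMIs and 2608 genes per cell, and between 161 and 368 of them came from each mouse. Their summed UMIs per mouse lay between 925148 and 2024674, which sets the precision of each level below. The late rapamycin mouse of day 1 stood apart. It gave the fewest early cells, and genes of stem and multipotent cells summed to 2914 CPM (UMI counts scaled to a common depth) in them, against 4787 to 5806 CPM in the other 5 mice. Its B cells, which should lack myeloid transcripts, held 1293 CPM of Elane, against 63 to 210 CPM in the other mice. Mpo reached 2 UMIs in 4.88% of its 82 B cells and in at most 1.15% of those of any other mouse. The share of its B cells with any Elane UMI was 12.2% (exact 95% interval 6.01 to 21.3%), against 8.94% and 9.51% in the other 2 mice of that day, and 3.66% held 2 or more. The high level thus sat in few B cells. These transcripts move with the late rapamycin group on day 1, and their part in the results was not tested.

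The marker check met the label in part. Kit, the stem cell factor receptor, was detected in 76.0% of early cells. The 2485 B cells were chosen by at least 2 Cd79a UMIs, an Ebf1 UMI and no Kit UMI. They therefore give no comparison for Kit. The labels also give sorts for Kit before loading. Cebpa was detected in 16.0% of early cells and in 0.28% of B cells. Spi1 was detected in 51.5% of early cells, against 18.2% of B cells. The median depth was 5206 UMIs in early cells and 1574 UMIs in the B cells, so the shares are not at matched depth. Markers of other lineages were rare: Gata1 and Klf1 of the erythroid lineage were found in 1.61% and 0.49% of early cells, Il7r of lymphoid cells in 0.49%, and Cd79a of B cells in 0.80%. Tppp3, whose promoter drives the Cre, had 1 UMI in 1 early cell, of the tamoxifen mouse of day 1. Genes of stem and multipotent cells were frequent, with Hlf in 56.3%, Mecom in 64.8% and Meis1 in 91.5% of the cells, and Flt3 in 62.2%. The cells are therefore called early Mpo Cd34 cells or early cells below, since granule and stem cell transcripts occur together in them.

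The excluded genes differ in how much they remove. Among the 5068 cells with Mpo and Cd34, Elane was found in 51.2%, F13a1, the coagulation factor chain of monocytes, in 29.4% and Dntt, the lymphoid terminal transferase, in 12.5%. Car1 was found in 5.29% and each of the other 4 genes in less than 3%. Elane alone kept out 1109 cells and F13a1 alone 159 cells, which serve as the more advanced neighbours below. The other neighbour is the 4337 cells with Cd34, no Mpo and none of the 8 excluded genes, called Mpo-lacking Cd34 cells.

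Mpo was low in most early cells, with a median of 3 UMIs per cell and a range from 2 to 38. The lowest allowed count, 2 UMIs, was found in 502 cells or 31.0%. At the other end, 193 cells or 11.9% had 10 or more. Median depth differed along this order, with 4548 UMIs per cell at 2 Mpo UMIs and 7086 at 10 or more. Cd34 had a median of 2 UMIs, with a range from 1 to 13.

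Levels of other genes were ordered along the Mpo count. Ctsg had a median over the 6 mice of 20.9 CPM in cells with no Mpo UMI, 99.0 CPM at 2 Mpo UMIs, 265 CPM at 4 to 5 and 781 CPM at 10 or more. Prtn3 had 253, 412, 536 and 1168 CPM at the same counts. The protease transcripts were thus higher at each of these steps. Irf8 had 15.7 CPM at no Mpo UMI and 137 CPM at 10 or more, and Cebpa 13.1 and 57.0 CPM. Spi1 ranged only from 120 to 159 CPM over all steps.

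Stem cell genes ran the other way. Hlf, a factor of haematopoietic stem cells, had medians of 847 CPM in cells with no Mpo UMI, 369 CPM at 2, 229 CPM at 4 to 5 and 94.3 CPM at 10 or more. Mecom, which encodes the stem cell factor EVI1, had 1016, 523, 349 and 148 CPM. Both genes were lower at every step. Flt3 had 381 CPM with no Mpo UMI, 310 CPM at 2 and 158 CPM at 10 or more. Just outside the rule, the 1142 cells with 1 Mpo UMI had 276.6 CPM of Prtn3, 61.8 CPM of Ctsg and 579 CPM of Hlf. Just inside it, the cells with 2 had 412, 99.0 and 369 CPM of the same genes.

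**Figure D1:**
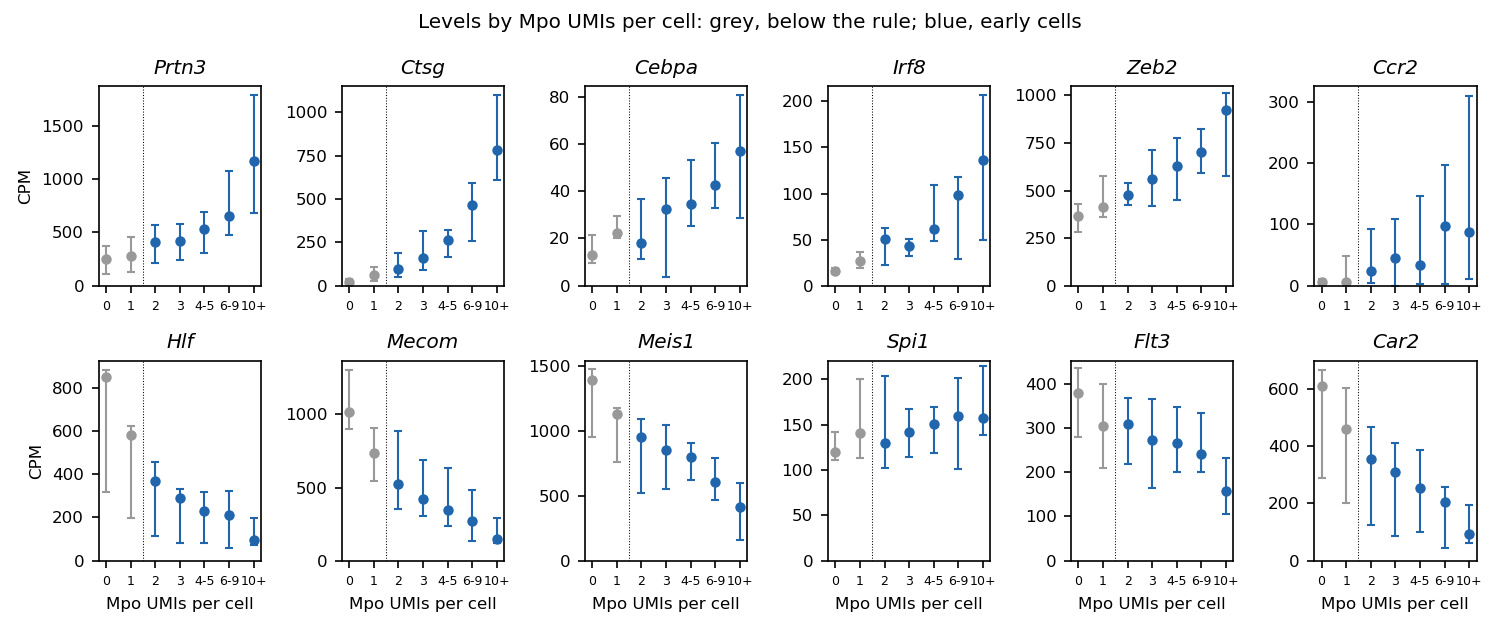
Level of 12 genes in CPM of all UMIs (y axes) by the number of Mpo UMIs per cell (x axes). Points are medians over 6 mice and bars their range; grey points are cells below the rule and blue points early cells. Prtn3 and Ctsg have their highest medians, 1168 and 781 CPM, at 10 or more Mpo UMIs, where Hlf and Mecom have their lowest.

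The promoters of Mpo, Prtn3 and Ctsg are shown because Prtn3 and Ctsg, both granule genes, were ordered along the count of Mpo, the gene of the rule. The sequences are from RefSeq (GRCm38.p6), run from 250 bases before to 50 after the annotated start, 5′ to 3′ on the gene's strand, and capitals mark motif matches.
Mpo, chr11:87793534-87793833, plus strand: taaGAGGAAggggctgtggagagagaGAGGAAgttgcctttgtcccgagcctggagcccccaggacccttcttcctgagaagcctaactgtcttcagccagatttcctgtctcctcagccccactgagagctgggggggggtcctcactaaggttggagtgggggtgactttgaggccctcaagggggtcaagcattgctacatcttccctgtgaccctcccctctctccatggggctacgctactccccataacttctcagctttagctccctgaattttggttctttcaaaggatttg
Prtn3, chr10:79879417-79879716, plus strand: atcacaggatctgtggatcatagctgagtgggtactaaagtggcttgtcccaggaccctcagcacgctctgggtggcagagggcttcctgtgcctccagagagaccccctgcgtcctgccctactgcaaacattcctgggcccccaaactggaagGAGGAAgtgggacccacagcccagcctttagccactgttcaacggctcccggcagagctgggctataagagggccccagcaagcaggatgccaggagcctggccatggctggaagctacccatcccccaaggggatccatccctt
Ctsg, chr14:56102525-56102824, minus strand: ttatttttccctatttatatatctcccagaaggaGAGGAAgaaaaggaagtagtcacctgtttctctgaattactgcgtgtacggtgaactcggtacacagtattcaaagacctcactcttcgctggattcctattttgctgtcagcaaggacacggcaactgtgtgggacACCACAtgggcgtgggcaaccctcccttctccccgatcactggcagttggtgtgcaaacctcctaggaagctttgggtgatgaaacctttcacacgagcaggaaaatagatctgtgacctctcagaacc
The PU.1 letters GAGGAA were found at -247 and -224 in Mpo, at -95 in Prtn3 and at -216 in Ctsg, counted from the start. The RUNX letters TGTGGT were found once, at -79 in Ctsg, on the opposite strand. The C/EBP letters TTGCNNAA were in none of these 3 windows. Both strands were searched, and the motifs occur in 28.3%, 16.8% and 10.8% of 32851 mouse promoters of the same length. In GENCODE vM21 on GRCm38 the genes span chr11:87793581-87804413 (Mpo), chr10:79874476-79883174 (Prtn3) and chr14:56099881-56102574 (Ctsg), and all are protein coding.

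Early cells were then set against their 3 neighbours, with UMIs summed per mouse and kind and the mouse as a block. The 10 genes of the rule were left out of the tests. The kinds were chosen by transcripts of the same cells, so that genes tied to Mpo, Elane or F13a1 had to differ, and the adjusted p of these contrasts only describe how far the kinds stand apart. Median depth also differed, with 5206 UMIs in early cells, 3374 in Mpo-lacking, 7699 in Elane-containing and 6927 in F13a1-containing cells, and its part was not tested. All levels in these contrasts are edgeR CPM, scaled within each contrast.

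Against Mpo-lacking Cd34 cells, the early cells had higher levels of most granule, monocyte and division genes and lower levels of most stem cell genes. Of 10282 genes tested, 5092 or 49.5% passed an adjusted p of 0.05 with edgeR, 2535 or 24.7% higher and 2557 or 24.9% lower in early cells. Of the 10 primary granule genes tested, 8 were higher and 2 lower, with a median log2 difference of 0.89, against -0.01 for all genes. Of 9 monocyte and dendritic genes tested, 6 were higher and 3 lower, with a median of 0.56. Ctsg averaged 325 ± 79.2 CPM in early cells and 22.3 ± 12.5 CPM in Mpo-lacking cells (SD, n = 6 mice), a log2 difference of 4.04 (SE 0.09). Prtn3 averaged 606 ± 164 CPM in early cells and 237 ± 86.3 CPM in Mpo-lacking cells, a log2 difference of 1.35 (SE 0.07). Both were higher in early cells of 6 of 6 mice.

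Among the 13 myeloid transcription factors tested, 8 were higher and 4 lower in early cells, with a median of 0.22. Irf8 averaged 74.0 ± 16.5 CPM in early cells and 15.4 ± 2.64 CPM in Mpo-lacking cells (log2 difference 2.26). Cebpa averaged 35.9 ± 5.92 CPM in early cells and 13.3 ± 3.94 CPM in Mpo-lacking cells (1.46). Spi1 differed by 0.35 and Zeb2, a repressor used in myeloid branching, by 0.84. Gfi1 was lower in early cells, by a log2 difference of -0.36, in 5 of 6 mice.

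Among 11 receptor genes, 6 were higher and 4 lower. The chemokine receptor Ccr2 was higher by 3.31 and Csf1r, the receptor of the macrophage growth factor, by 1.61. Kit and Flt3 were lower, by -0.33 and -0.43. Csf3r, the receptor of granulocyte colony-stimulating factor, averaged 136 CPM in early cells and 140 CPM in Mpo-lacking cells, with an adjusted p of 0.83 by edgeR. Levels of Ccr2 varied widely among mice, from 5.46 to 148 CPM in early cells.

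Of 13 stem and multipotent genes, 11 were lower and 1 higher in early cells, with a median of -1.06. Hlf averaged 243 ± 81.9 CPM in early cells and 736 ± 211 CPM in Mpo-lacking cells, a log2 difference of -1.60 (SE 0.05), lower in 6 of 6 mice. The lists of dividing and growing cells ran the other way: 29 of 30 S phase genes, all 25 genes of G2 and M phase and 17 of 18 ribosome biogenesis genes were higher in early cells. Immediate early genes, which respond to stimulation and dissociation, were lower for 10 of 12, and interferon response genes for 15 of 19. Of 9 later neutrophil genes, 8 were lower in early cells, led by Camp at -2.72. Camp was found in 9.15% of Mpo-lacking cells and in 7.52% of B cells. Other genes far apart included the basophil protease Mcpt8 (3.43) and the monocyte gene Ly86 (3.14). Of the Mcpt8 UMIs in early cells, 5 of the 1617 cells held 59.5%.

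Against Elane-containing neighbours, the early cells were poor in granule and secretory transcripts and rich in stem cell ones. Of 9729 genes, 4769 or 49% passed the threshold, 2276 or 23.4% higher and 2493 or 25.6% lower in early cells. Prtn3 averaged 566 ± 153 CPM in early cells and 4228 ± 728 CPM in Elane-containing cells, a log2 difference of -2.93 (SE 0.06). Ms4a3, a gene of committed granulocyte-monocyte progenitors, averaged 25.3 ± 20.3 CPM in early cells and 714 ± 124 CPM in Elane-containing cells (-4.98). Cebpe averaged 1.93 CPM in early cells and 91.5 CPM in Elane-containing cells (-5.66). All 3 were lower in early cells of 6 of 6 mice.

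Of 10 primary granule genes, 8 were lower in early cells and none higher, with a median of -1.87. All 12 stem and multipotent genes tested were higher, with a median of 1.46. Flt3 was higher by 1.83, Mecom by 1.62 and Hlf by 1.45. All 14 secretory pathway genes were lower, among them the endoplasmic reticulum chaperones Hspa5 (-1.70) and Hsp90b1 (-1.46), as were 18 of 18 ribosome biogenesis genes and 71 of 73 oxidative phosphorylation genes. The growth regulator Myc averaged 204 CPM in early cells and 216 CPM in Elane-containing cells (adjusted p 0.26, edgeR). Immediate early genes were higher for 9 of 11.

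Against the 159 F13a1-containing neighbours, where 17 to 32 cells stand for each mouse, the early cells had lower levels of monocyte genes. Of 7792 genes, 643 or 8.25% passed, 289 or 3.71% higher and 354 or 4.54% lower in early cells. All 6 monocyte and dendritic genes tested were lower, with a median of -1.84. Ly86 averaged 14.3 CPM in early cells and 159 CPM in F13a1-containing cells, a log2 difference of -3.48 (SE 0.21). Irf8 was lower by -2.16 and Csf1r by -2.29, both in 6 of 6 mice.

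The stem and multipotent genes were higher in early cells for 9 of 11 tested, with Mecom at 1.32 and Hlf at 1.25. The granule genes were mixed, with 2 higher, 3 lower and 5 not past the threshold; Ctsg was lower by -1.11 and Prtn3 by -0.97. Cebpa averaged 34.4 CPM in early cells and 51.4 CPM in F13a1-containing cells (log2 difference -0.55, adjusted p 0.14, edgeR). Flt3 averaged 254 CPM in early cells and 269 CPM in F13a1-containing cells (adjusted p 0.68). None of the 30 S phase genes passed, while 15 of 25 genes of G2 and M phase were lower in early cells. Parts of the complexes that rapamycin acts on stood near 0 in all 3 contrasts, with medians of -0.04, -0.02 and 0.00.

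**Figure D2:**
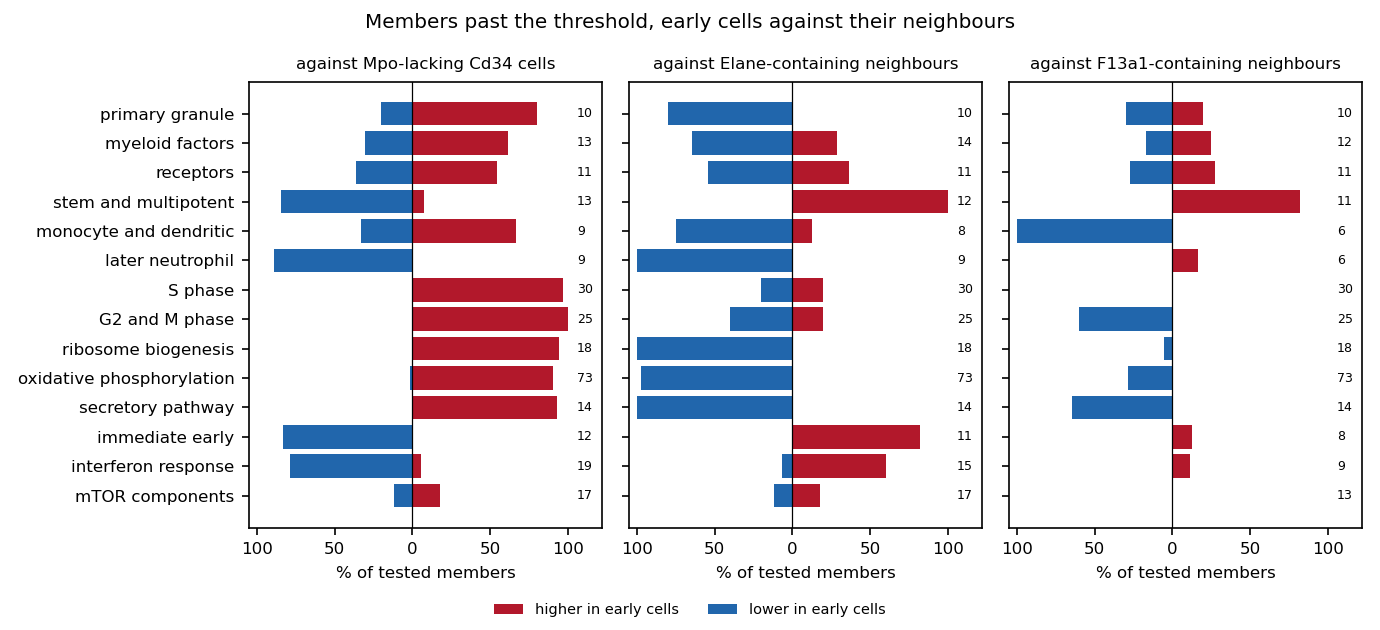
Share of tested list members (x axes, %) past an edgeR adjusted p of 0.05 in early cells against each of 3 neighbours, to the right for higher and to the left for lower in early cells. The number at the right of each row is how many members were tested; stem and multipotent genes lie mostly to the left against Mpo-lacking cells (11 of 13) and wholly to the right against Elane-containing cells (12 of 12).

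The share of early cells varied between days as much as between treatments. Early cells were 5.91% and 3.93% of kept cells in tamoxifen with rapamycin mice, 2.28% and 4.86% in late rapamycin mice and 4.92% and 4.08% in tamoxifen mice. The late rapamycin mouse of day 1 was the lowest and the values of the 3 treatments overlapped. The difference was 0.416 percentage points for tamoxifen with rapamycin against tamoxifen (two-sided exact permutation test, p = 1, n = 2 each). It was -0.932 points for late rapamycin against tamoxifen (exact p = 0.667) and 1.35 points for tamoxifen with rapamycin against late rapamycin (exact p = 0.667). Without 1 mouse the differences lay between -0.573 and 1.41, between -2.22 and 0.360, and between 0.0564 and 2.64 points, in that order. Their extremes came from leaving out either tamoxifen with rapamycin mouse for the first, and either late rapamycin mouse for the others. Each difference had opposite signs on the 2 days, and 2 mice against 2 cannot give a p under 0.333. The sort of the marrow before loading can also set these shares.

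Among cells with Mpo and Cd34, early cells were 36.2% and 30.2% in tamoxifen with rapamycin mice, 16.8% and 36.6% in late rapamycin mice and 35.9% and 38.8% in tamoxifen mice. The low value was again that of the late rapamycin mouse of day 1. With each cell thinned to 2000 UMIs before the rule was applied, these shares were 53.4% and 39.8%, 34.7% and 42.1%, and 46.3% and 48.4% in the same order. The shares of kept cells were then 4.79% and 2.13%, 1.42% and 2.23%, and 3.47% and 1.92%. Cells under 2000 UMIs were left out first, so the denominators are unlike. They were 5.69% of kept cells in the late rapamycin mouse of day 1 and 17.3 to 21.9% in the other mice. The late rapamycin mouse of day 1 stayed lowest in both. Before thinning, the exact p among cells with Mpo and Cd34 were 0.667 for tamoxifen with rapamycin and 0.667 for late rapamycin, each against tamoxifen. Between the rapamycin treatments it was 1.

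Most early cells held at least 1 UMI of 10 division genes. The share was 68.5% and 79.1% in tamoxifen with rapamycin mice, 83.2% and 79.4% in late rapamycin mice and 78.5% and 73.1% in tamoxifen mice. With each cell thinned to 2000 UMIs, it was 60.6% and 68.4%, 70.3% and 68.4%, and 68.4% and 62.4% in the same order. Thinning left out 7 tamoxifen with rapamycin cells, 5 late rapamycin cells and 7 tamoxifen cells. Late rapamycin exceeded tamoxifen by 5.51 points and lay above it on both days, and tamoxifen with rapamycin lay 7.53 points below late rapamycin (exact p = 0.333 for each). Tamoxifen with rapamycin differed from tamoxifen by -2.02 points (exact p = 1).

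**Figure D3:**
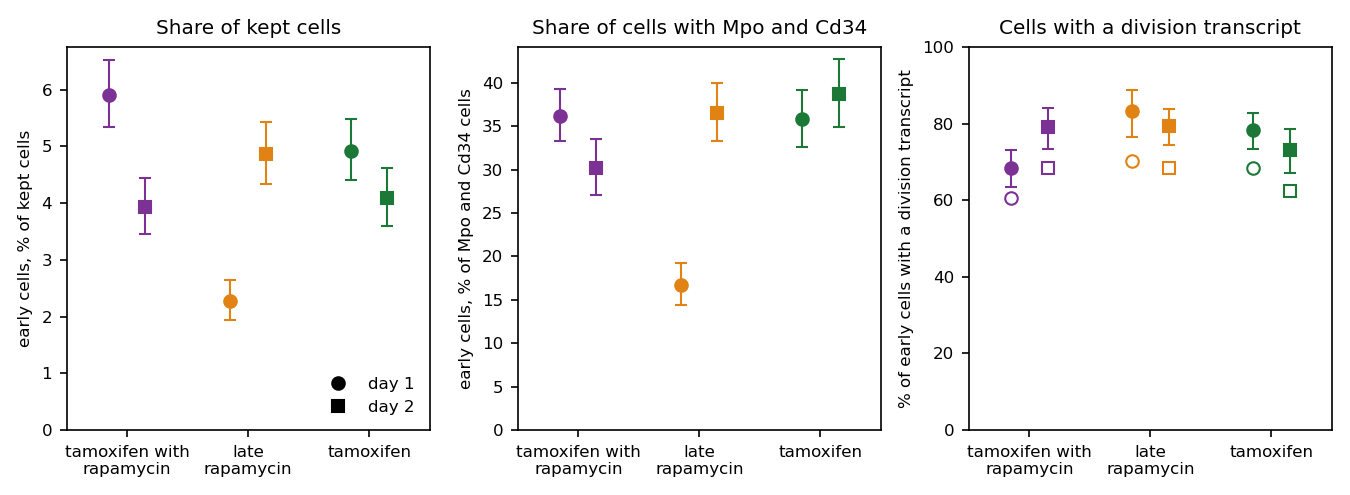
Early cells as a share of kept cells (left), as a share of cells with Mpo and Cd34 (middle), and early cells with a UMI of a division gene (right), all in % (y axes), for each mouse by treatment (x axes). Bars are exact 95% binomial intervals, which cover counting error only, and open symbols on the right are values after thinning to 2000 UMIs. The late rapamycin mouse of day 1 has the lowest shares, 2.28% and 16.8%.

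Gene levels in early cells were compared between treatments on UMIs summed per mouse, with the day as a block and all 6 mice in 1 edgeR fit over 10214 genes. The 3 comparisons share mice, and the p-values measure the spread between 2 mice per treatment. Levels are edgeR CPM. Where values of 2 mice against 2 do not overlap, an exact permutation test gives a p of 0.333. How many of all genes tested were so separated was not counted. The genes below were named by their p, so a lack of overlap adds no support. Those that passed were named only with 1 sign on both days, so a shared sign adds none either.

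Early cells of mice given rapamycin with neonatal tamoxifen differed from those of mice given tamoxifen alone in 4 of 10214 genes, or 0.0392%, at an adjusted p of 0.05. Prss34, Nxpe5 and Ctse (0.0294% of genes) were higher and the predicted gene Gm49692 (0.00979%) was lower. The median log2 difference over all genes was 0.00. Without adjustment, 400 genes had a p under 0.05, and DESeq2 called 0 after adjustment. With 1 of the 6 mice left out, edgeR called between 8 genes (without the tamoxifen mouse of day 1) and 19 (without that of day 2).

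Ctse, the aspartic protease cathepsin E (chr1:131638306-131675505), had 102 and 120 CPM in tamoxifen with rapamycin mice, against 35.7 and 56.1 CPM in tamoxifen mice. The groups did not overlap, and Ctse was higher on both days. The log2 difference was 1.28 (SE 0.17, adjusted p = 0.00361, edgeR). The adjusted p was 0.0582 without the tamoxifen mouse of day 1, 0.0859 without the day in the fit and 0.238 with DESeq2.

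Nxpe5 (chr5:138225898-138253363) had 49.2 and 34.7 CPM in tamoxifen with rapamycin mice, against 7.14 and 8.58 CPM in tamoxifen mice. Both values lay above both of the tamoxifen mice. It was higher by 2.39 on the log2 scale (SE 0.32, adjusted p = 0.00361, edgeR). Without the tamoxifen with rapamycin mouse of day 1, the adjusted p was 0.0796. It was 0.0832 in cells with at least 3 Mpo UMIs and 0.238 with DESeq2.

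Gm49692 (chr12:20191900-20309078) had 3.11 and 2.62 CPM in tamoxifen with rapamycin mice, against 19.3 and 29.0 CPM in tamoxifen mice. Both treated mice were lower, by a log2 difference of -3.03 (SE 0.41, adjusted p = 0.00361, edgeR). The adjusted p was 0.0617 in cells with at least 3 Mpo UMIs and 0.238 with DESeq2.

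Prss34, a basophil and mast cell protease, had 111 and 173 CPM in tamoxifen with rapamycin mice, against 4.29 and 31.7 CPM in tamoxifen mice (log2 difference 3.04, SE 0.30, adjusted p = 0.000229, edgeR). Its 499 UMIs sat in 7 of the 1617 cells, and 5 cells held 99.6% of them. Of the tamoxifen with rapamycin UMIs, 179 came from 1 cell on day 1. Cells with 5 or more UMIs of Prss34, Mcpt8, Ms4a2 or Cd74 were 16 in all: 4 and 6 in tamoxifen with rapamycin mice, 0 and 3 in late rapamycin mice and 1 and 2 in tamoxifen mice. Left out, they took the Prss34 call with them in all 3 comparisons. The log2 difference was 4.44 without the tamoxifen with rapamycin mouse of day 2, and 2.42 and 4.69 without the tamoxifen mouse of day 1 and of day 2. The adjusted p against tamoxifen was 0.121 in cells with at least 3 Mpo UMIs and 1.00 with DESeq2.

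The genes that came next did not pass. Dlg2, a synaptic scaffold gene, had 3.73 and 5.23 CPM in tamoxifen with rapamycin mice, against a mean of 26.2 CPM in tamoxifen mice (log2 difference -2.53, adjusted p = 0.0711). Fam102b had 86.5 and 79.8 CPM in tamoxifen with rapamycin mice, against 42.2 and 44.2 CPM in tamoxifen mice (0.94, adjusted p = 0.0935). The proteases of the granule programme did not pass either. Prtn3 had 635 and 725 CPM in tamoxifen with rapamycin mice, against 573 and 422 CPM in tamoxifen mice (0.49, SE 0.19). Kit had 324 and 358 CPM in tamoxifen with rapamycin mice, against 306 and 285 CPM in tamoxifen mice.

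No tested member of the lists of granule genes (11), mTOR components, translation factors, ribosomal proteins, ribosome biogenesis (18), oxidative phosphorylation (73) or heat shock (10) passed in this comparison. The granule list had a median of 0.17 and the ribosome biogenesis list of -0.07. In the treatment comparisons the granule list includes Mpo, whose counts chose the cells. S phase genes had a median of -0.15, with 24 of 30 below 0, but the median was -0.27 on day 1 and 0.02 on day 2. The lysosome and autophagy list had 15 of 16 members above 0, with medians of 0.09 and 0.22 on the 2 days, and no member passed. Among the genes of basophils, mast cells and eosinophils, only Prss34 passed, and Cpa3, the mast cell carboxypeptidase, had 74.0 and 83.1 CPM in tamoxifen with rapamycin mice, against 151 and 130 CPM in tamoxifen mice (-0.85, adjusted p = 0.421, edgeR).

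Late rapamycin differed from tamoxifen in 8 genes or 0.0783%, 3 of them or 0.0294% higher and 5 or 0.049% lower. Without adjustment, 649 genes had a p under 0.05, and DESeq2 called 6 after adjustment, of which 5 were shared. With 1 mouse left out the count lay between 22 (without the tamoxifen mouse of day 1) and 159 (without the late rapamycin mouse of day 2), and without the day in the fit it was 4. One of the lower genes is a predicted gene and another is Prss34, with 1 UMI in the late rapamycin mice and 54 in the tamoxifen mice. The Prss34 level in tamoxifen mice was 54.4 times that in late rapamycin mice, with an exact 95% counting interval from 9.36 to 2189. Of the 54 UMIs, 48 were in 1 cell of the tamoxifen mouse of day 2, so the interval, which treats UMIs as independent, is too narrow. The adjusted p of Prss34 was 0.170 without the tamoxifen mouse of day 2, 0.262 without the late rapamycin mouse of day 2, 0.381 without the day in the fit and 0.763 with DESeq2. Its fitted log2 difference, which depends on the prior count, was -5.56 with all mice, -3.80 and -3.40 without these 2 mice in that order, and -8.26 without the late rapamycin mouse of day 1.

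Hsph1, a heat shock protein of the Hsp110 family, had 123 and 96.3 CPM in late rapamycin mice, against 37.2 and 39.6 CPM in tamoxifen mice. It was higher by 1.49 on the log2 scale (SE 0.18, adjusted p = 0.00149, edgeR). Rabgef1, an exchange factor for the endosomal GTPase Rab5, had 90.2 and 77.7 CPM in late rapamycin mice, against a mean of 24.1 ± 1.34 CPM in tamoxifen mice (SD, n = 2). Its log2 difference was 1.81 (SE 0.22, adjusted p = 0.00149). Both genes were higher on both days, without overlap, and passed under each of the 13 alternatives tried.

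Fut8, the core fucosyltransferase, had 1374 and 1129 CPM in late rapamycin mice, against 821 and 740 CPM in tamoxifen mice. The difference was 0.68 on the log2 scale (SE 0.12, adjusted p = 0.0324, edgeR). The groups did not overlap, but the adjusted p was 0.934 without the tamoxifen mouse of day 1 and 0.527 without that of day 2. It was 0.174 without the day in the fit and 0.0598 in cells with at least 3 Mpo UMIs.

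Adgrg1, the adhesion receptor GPR56 of stem and progenitor cells, had 229 and 204 CPM in late rapamycin mice, against 405 and 410 CPM in tamoxifen mice. The log2 difference was -0.91 (SE 0.13, adjusted p = 0.00787, edgeR), and both late rapamycin mice were lower. Without the tamoxifen mouse of day 2 the adjusted p was 0.245. Adgrg1 was the 1 called member of the 13 stem and multipotent genes, whose medians were -0.34 on day 1 and 0.00 on day 2.

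Cpa3 had 26.7 and 63.1 CPM in late rapamycin mice, against 151 and 130 CPM in tamoxifen mice. Its log2 difference was -1.54 (SE 0.23, adjusted p = 0.00874, edgeR), and -2.42 without the late rapamycin mouse of day 2. The adjusted p was 0.0560 without the day in the fit. Cpa3 was found in 15.0% of early cells with 808 UMIs, and the 5 cells with most held 10.6% of them. In all, 59 cells had 5 or more Cpa3 UMIs. These cells held 10 and 77 Cpa3 UMIs in late rapamycin mice, against 147 and 130 in tamoxifen mice. In tamoxifen with rapamycin mice they held 48 and 67. A fit without these cells was not run.

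Ighm, the immunoglobulin M heavy chain, had 24.5 and 43.5 CPM in late rapamycin mice, against 87.2 and 86.5 CPM in tamoxifen mice. The log2 difference was -1.26 (SE 0.21, adjusted p = 0.0251, edgeR). The adjusted p was 0.0773 without the late rapamycin mouse of day 1, 0.0801 without the day in the fit and 0.146 with DESeq2. Cd79a, which marks B cells, was in 0.80% of early cells. B cells numbered 82 and 430 in late rapamycin mice, 305 and 509 in tamoxifen mice and 436 and 723 in tamoxifen with rapamycin mice. The part of B cell transcripts in the Ighm levels was not tested.

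Chaperone genes lay above 0 as a list in late rapamycin against tamoxifen. Of 10 heat shock genes, 8 were above 0 with a median of 0.43, and Hsph1 passed. Of 14 secretory pathway genes, 14 were above 0 and none passed, with a median of 0.48 against 0.01 for all genes. Hspa8, the constitutive heat shock cognate, had 1832 and 1507 CPM in late rapamycin mice, against 1171 and 1052 CPM in tamoxifen mice (0.58, adjusted p = 0.0804, edgeR). Hsp90b1 had 575 and 552 CPM in late rapamycin mice, against 400 and 313 CPM in tamoxifen mice (0.67, adjusted p = 0.0757). The cold inducible Rbm3 had 514 and 398 CPM in late rapamycin mice, against 705 and 633 CPM in tamoxifen mice (-0.57, adjusted p = 0.146). Oxidative phosphorylation had 64 of 73 members above 0, with a median of 0.16, and none passed.

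Granule genes did not pass in this comparison. Ctsg had 393 and 217 CPM in late rapamycin mice, against 394 and 232 CPM in tamoxifen mice, so that the days differed more than the treatments. Prtn3 had 811 and 409 CPM in late rapamycin mice, against 573 and 422 CPM in tamoxifen mice. Cebpa had 42.3 and 25.9 CPM in late rapamycin mice, against 37.9 and 31.7 CPM in tamoxifen mice. Flt3 had 210 and 204 CPM in late rapamycin mice, against 296 and 309 CPM in tamoxifen mice (-0.54, adjusted p = 0.204, edgeR). Later neutrophil genes had medians of 0.00 on day 1 and 1.97 on day 2, and none of the 8 tested passed.

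Tamoxifen with rapamycin differed from late rapamycin in 16 genes or 0.157%, 9 or 0.0881% higher and 7 or 0.0685% lower. Without adjustment, 827 genes had a p under 0.05, and DESeq2 called 6 after adjustment, all among the 16. With 1 mouse left out the count lay between 21 (without the tamoxifen with rapamycin mouse of day 1) and 168 (without the late rapamycin mouse of day 2), and without the day in the fit it was 8. The higher genes were Prss34, Mcpt8, Sema3d, Nxpe5, Ighm, Pde7b, Fam102b, Ctse and Dhrs3. The lower genes were Gm49692, Rabgef1, Hsph1, Hist2h2ac, Hspa5, Dnaja1 and Hspa8.

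The lower group held 4 chaperone genes. Dnaja1, a co-chaperone of Hsp70, had 247 and 221 CPM in tamoxifen with rapamycin mice, against 408 and 394 CPM in late rapamycin mice (log2 difference -0.78, SE 0.12, adjusted p = 0.0109, edgeR). It passed under each of the 13 alternatives. Hsph1 had 50.4 and 42.5 CPM in tamoxifen with rapamycin mice, against 123 and 96.3 CPM in late rapamycin mice (-1.22, adjusted p = 0.00687). Hspa8 had 1093 and 1006 CPM in tamoxifen with rapamycin mice, against 1832 and 1507 CPM in late rapamycin mice (-0.66, adjusted p = 0.0169). None of these groups overlapped, which adds no support beyond the p by which the genes were named.

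Hspa5, the endoplasmic reticulum chaperone BiP, had 301 and 277 CPM in tamoxifen with rapamycin mice, against 698 and 409 CPM in late rapamycin mice (-0.89, adjusted p = 0.0136). The adjusted p without the tamoxifen with rapamycin mouse of day 1 was 0.324 for Hspa5 and 0.338 for Hspa8. Without the day in the fit it was 0.284 for Hspa5 and 0.0836 for Hspa8. For Hspa8 it was also above the threshold without either tamoxifen mouse, which add to the estimate of spread, at 0.0743 and 0.0750. The DESeq2 adjusted p of Hsph1 was 0.182. Of 10 heat shock genes, 3 passed and 9 were below 0, with medians of -0.73 and -0.27 on the 2 days. All 14 secretory pathway genes were below 0, with a median of -0.39 against -0.01 for all genes. Their median was -0.60 on day 1 and -0.08 on day 2.

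Rabgef1 had 44.8 and 24.2 CPM in tamoxifen with rapamycin mice, against 90.2 and 77.7 CPM in late rapamycin mice (-1.31, adjusted p = 0.0109, edgeR). Its adjusted p was 0.0521 without the tamoxifen with rapamycin mouse of day 2 and 0.0555 without the late rapamycin mouse of day 2. It was 0.0836 without the day in the fit and 0.490 with DESeq2. The histone gene Hist2h2ac had 82.8 and 64.8 CPM in tamoxifen with rapamycin mice, against 144 and 128 CPM in late rapamycin mice (-0.89, adjusted p = 0.0169). Its adjusted p was 0.0870 without the day and 0.649 with DESeq2. Gm49692 was lower as it was against tamoxifen (-2.92, adjusted p = 0.00669; 0.103 with DESeq2).

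Of the higher genes, Ighm had 95.8 and 92.3 CPM in tamoxifen with rapamycin mice, against 24.5 and 43.5 CPM in late rapamycin mice (1.38, SE 0.21, adjusted p = 0.00712, edgeR), and passed under each of the 13 alternatives. Ctse had 102 and 120 CPM in tamoxifen with rapamycin mice, against 39.0 and 52.3 CPM in late rapamycin mice (1.29, adjusted p = 0.00567). Its adjusted p was 0.0506 without the day and 0.103 with DESeq2. Fam102b had 86.5 and 79.8 CPM in tamoxifen with rapamycin mice, against 31.2 and 35.7 CPM in late rapamycin mice (1.29, adjusted p = 0.00712; 0.297 with DESeq2). The groups were apart for all 3 genes, which likewise adds no support.

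Sema3d, a secreted semaphorin, had 58.5 and 49.7 CPM in tamoxifen with rapamycin mice, against 24.5 and 8.31 CPM in late rapamycin mice (1.91, adjusted p = 0.00763, edgeR). Its log2 difference was 2.55 without the late rapamycin mouse of day 1 and 1.26 without that of day 2. The adjusted p was 0.0596 without the late rapamycin mouse of day 2, 0.0506 without the day and 0.182 with DESeq2. Nxpe5 had 49.2 and 34.7 CPM in tamoxifen with rapamycin mice, against 7.80 and 13.2 CPM in late rapamycin mice (1.85, adjusted p = 0.0137). Its log2 difference was 2.46 without the tamoxifen with rapamycin mouse of day 2 and 2.58 without the late rapamycin mouse of day 2. Its adjusted p was 0.247 without the tamoxifen with rapamycin mouse of day 1, 0.104 without the late rapamycin mouse of day 1, 0.116 in cells with at least 3 Mpo UMIs and 0.719 with DESeq2.

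Dhrs3, a retinaldehyde reductase, had 74.0 and 75.3 CPM in tamoxifen with rapamycin mice, against 31.2 and 38.1 CPM in late rapamycin mice (1.07, adjusted p = 0.0257, edgeR). Pde7b, a cyclic AMP phosphodiesterase, had 39.2 and 34.0 CPM in tamoxifen with rapamycin mice, against 13.4 and 14.2 CPM in late rapamycin mice (1.37, adjusted p = 0.0470). Both lost the call with DESeq2 (1.00 for each), without the day (0.0506 for Dhrs3 and 0.0747 for Pde7b) and in cells with at least 3 Mpo UMIs (0.164 and 0.0750). Without the tamoxifen with rapamycin mouse of day 1, the adjusted p were 0.0571 for Dhrs3 and 0.189 for Pde7b. Without the late rapamycin mouse of day 1 they were 0.0998 and 0.141, and without that of day 2 Pde7b had 0.0636. Without the 16 cells rich in basophil or class II transcripts, Pde7b had 0.0699.

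Mcpt8 had 44.2 and 91.0 CPM in tamoxifen with rapamycin mice, against 17.8 and 12.7 CPM in late rapamycin mice (2.28, adjusted p = 0.00335, edgeR). It was found in 109 cells, of which 5 held 59.5% of its UMIs. Without the 16 cells rich in basophil or class II transcripts the log2 difference was -0.33 (adjusted p = 0.850), and without the late rapamycin mouse of day 2 it was 1.38 (adjusted p = 0.0751). The adjusted p was 0.0853 in cells with at least 3 Mpo UMIs. Prss34 had 444 UMIs in tamoxifen with rapamycin mice and 1 UMI in late rapamycin mice, a ratio of 414 with a counting interval from 73.9 to 16393. These UMIs came from 3 cells and 1 cell, so the interval is again too narrow. The fitted log2 difference, which depends on the prior count, was 8.60 with all mice. It was 10.2 without the tamoxifen with rapamycin mouse of day 2, 11.3 without the late rapamycin mouse of day 1 and 6.39 without that of day 2.

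**Figure D4:**
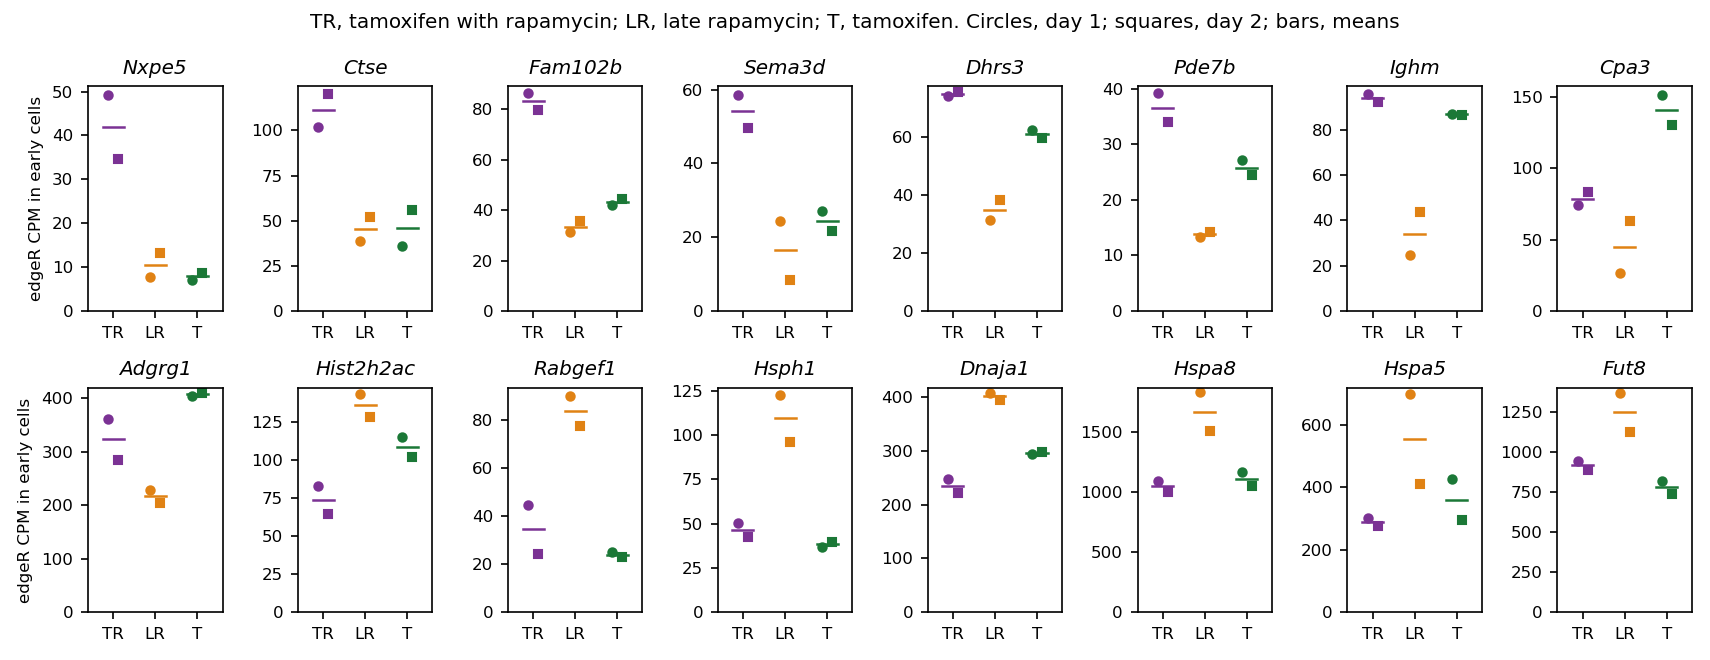
Level in edgeR CPM (y axes) of 16 genes in early cells of each mouse, for tamoxifen with rapamycin (TR), late rapamycin (LR) and tamoxifen (T). Circles are day 1, squares day 2 and bars the mean of the pair; Nxpe5 and Ctse are highest in TR (49.2 and 34.7, 102 and 120 CPM), and Rabgef1 and Hsph1 in LR (90.2 and 77.7, 123 and 96.3 CPM).

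A list of 20 genes that had been called between these treatments in stem cells of the same mice was also followed. It was chosen on these libraries and is no independent evidence of direction. In tamoxifen with rapamycin against tamoxifen, 2 of the 20 passed in early cells, Nxpe5 and Ctse, and 13 were above 0. In late rapamycin against tamoxifen 1 passed, Fut8. In tamoxifen with rapamycin against late rapamycin 4 passed, Nxpe5, Ctse and Sema3d higher and Hspa8 lower. Plac8 had 1376 and 1379 CPM in tamoxifen with rapamycin mice, 1456 and 1186 CPM in late rapamycin mice and 1173 and 974 CPM in tamoxifen mice, and passed in none. Clnk had 173 and 133 CPM in tamoxifen with rapamycin mice, 222 and 224 CPM in late rapamycin mice and 120 and 149 CPM in tamoxifen mice, and passed in none.

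**Figure D5:**
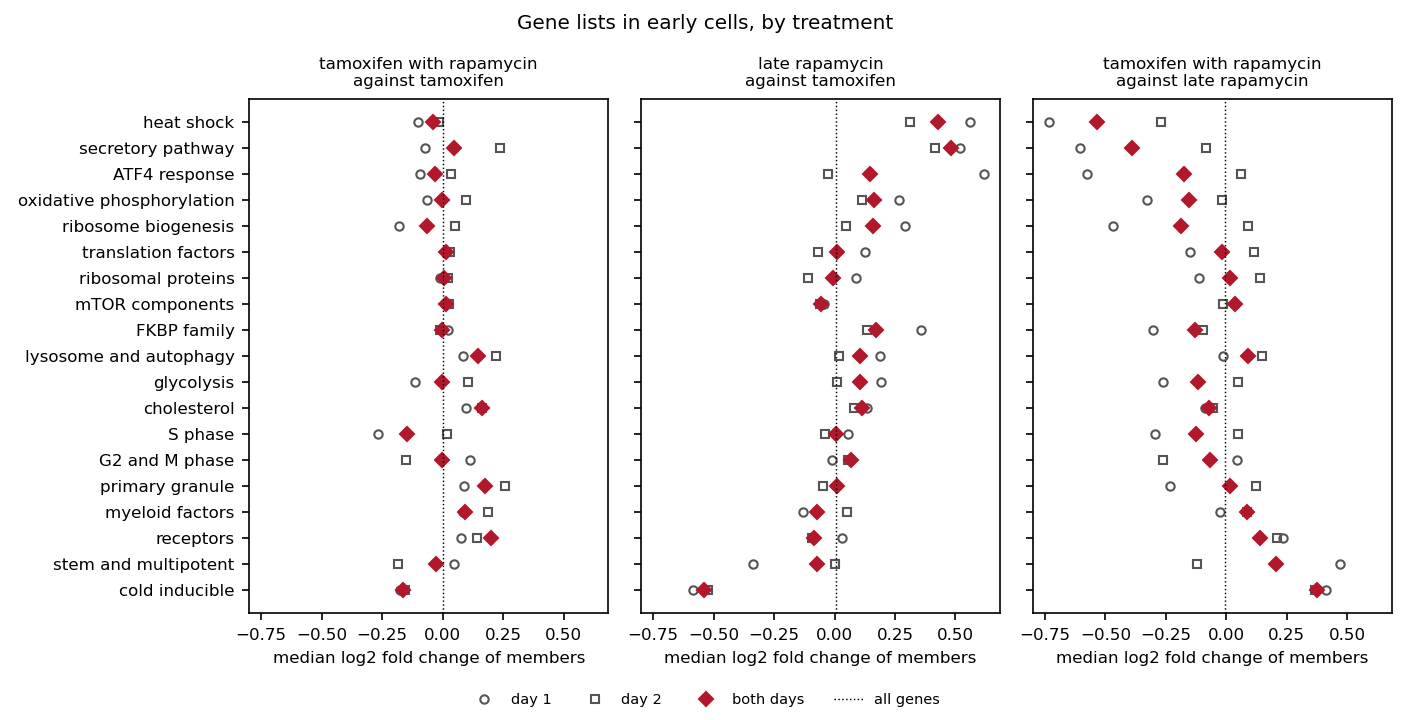
Median log2 difference of the tested members of 19 gene lists in early cells (x axes) for each treatment comparison. Open circles and squares are the medians on day 1 and day 2, red diamonds the fit over both days, and the dotted line the median of all genes; the heat shock and secretory lists lie at 0.43 and 0.48 in late rapamycin against tamoxifen and at -0.54 and -0.39 in tamoxifen with rapamycin against late rapamycin.

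Whether treatments acted differently on early and on Mpo-lacking Cd34 cells was tested by a difference of differences over 10965 genes. It passed for 2 genes or 0.0182% in tamoxifen with rapamycin against tamoxifen, 2 or 0.0182% in late rapamycin against tamoxifen and 4 or 0.0365% in tamoxifen with rapamycin against late rapamycin. Prtn3 had 787 and 413 CPM of all UMIs in early cells of late rapamycin mice, against 569 and 422 CPM in those of tamoxifen mice. In Mpo-lacking cells it had 186 and 112 CPM in late rapamycin mice, against 268 and 237 CPM in tamoxifen mice. The log2 difference between these effects was 1.01 (SE 0.10, adjusted p = 6.34e-07, edgeR). Taken alone, the effect was 0.25 in early cells (adjusted p = 0.871) and -0.81 in Mpo-lacking cells (adjusted p = 0.175). In tamoxifen with rapamycin mice Prtn3 had 632 and 716 CPM in early cells and 285 and 373 CPM in Mpo-lacking cells. The effect against late rapamycin differed between the kinds by -0.91 (adjusted p = 4.83e-06, edgeR). Taken alone, it was 0.24 in early cells (adjusted p = 0.791) and 1.22 in Mpo-lacking cells (adjusted p = 0.0295). Mpo-lacking cells were chosen by 0 Mpo UMIs. Their median depth was 2485 and 3699 UMIs in tamoxifen with rapamycin mice, 3193 and 4052 in late rapamycin mice and 2734.5 and 3497 in tamoxifen mice. The part of depth in this choice was not tested. B cells of the late rapamycin mouse of day 1 held 1385 CPM of Prtn3, against 60.0 to 137 CPM in the other mice. The part of these transcripts in the Prtn3 values was not tested.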

How the data were processed

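Single-cell 3' RNA libraries and hashtag antibody libraries of 2 processing days were read as the deposited UMI counts per gene and cell. Reads were aligned to mm10, per the submitters' processing notes, which give Cell Ranger 7.0.0; the matrix header gives 8.0.1. The labels give a sort of Lin-Sca+Kit+, Lin-Sca-Kit+ and whole bone marrow cells before loading. Each group has 1 mouse per day, and the replicate number marks the shared processing day, per the labels, so the day was kept as a block. Deviations of same-day mice from their group means correlated at 0.037, 0.032 and 0.174 over 10214 genes.

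Cells were kept with at least 500 genes, 1000 UMIs, at most 10% mitochondrial UMIs and at least 80% of hashtag UMIs on 1 tag. The last step left out 2694 and 2009 barcodes on the 2 days. Doublets within a mouse were not removed; from the mixed barcodes, 1354 (6.90%) and 1005 (5.55%) are expected among the kept cells. The days shared 126 barcode sequences, none of them in early cells. The rule was then applied to the counts, and for shares of cells with a UMI the cells were also thinned to 2000 UMIs.

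Counts were summed per mouse and kind, filtered with filterByExpr, TMM-scaled and tested with edgeR 4.0.16 in R 4.3.3 (quasi-likelihood test, two-sided, Benjamini-Hochberg adjusted p over all genes tested). CPM here are edgeR's, or plain CPM of all UMIs where so named. Contrasts between cell kinds had the mouse as a block, and the difference of differences also a day by kind term. Shares were compared by exact permutation tests over mice with scipy 1.17.1. Intervals are exact 95% binomial (Clopper-Pearson) and cover counting error only. On simulated counts for tamoxifen with rapamycin against tamoxifen (10062 genes), the fit recovered 79 of 100 genes changed 2-fold and 100 of 100 changed 4-fold with 8 false calls. It made 0 calls where nothing had been changed. The changed genes were drawn only above a set expected count, with the fitted trend of spread alone. No day effect and no transcripts confined to few cells were simulated. These figures therefore do not cover genes such as Prss34 and Mcpt8.

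The genes named were those that passed between treatments with 1 sign on both days, some of the next by p, the 10 largest differences per direction against each neighbour (at least 20 CPM in the higher kind, same sign in 6 mice), and members of the lists. Predicted genes were to be named only where fewer than 5 others passed; Gm49692 was named in a further comparison after its values were seen. Members and gene lists were chosen with earlier results of these data known. Alternatives were DESeq2 1.42.0 with its own size factors, DESeq2 size factors in edgeR, no filter on low counts, a stricter cell filter, at least 3 Mpo UMIs, thinning, at least 95% on 1 hashtag, no block, and each mouse left out. A fit without cells rich in basophil or class II transcripts was added after seeing the data. Some results are not reported here.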

Additional observations from a re-analysis of the deposited data

Results flagged for a closer look

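Each result here comes from a test of the difference itself, in which the treatment effect in early cells was set against that in Mpo-lacking Cd34 cells of the same mice. Levels are CPM of all UMIs. Prtn3 passed in late rapamycin against tamoxifen (1.01 on the log2 scale) and in tamoxifen with rapamycin against late rapamycin (-0.91), with the values given above.

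The other genes rest on few cells. Mcpt8 had 44.0 and 89.8 CPM in early cells of tamoxifen with rapamycin mice, against 19.9 and 31.6 CPM in those of tamoxifen mice. In Mpo-lacking cells it had 0 and 0.573 CPM in tamoxifen with rapamycin mice, against 4.86 and 11.1 CPM in tamoxifen mice. The effects differed by a fitted 5.72 on the log2 scale (adjusted p = 4.59e-06, edgeR), a value that depends on the prior count because 1 mouse is at 0.

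Prss34 had 111 and 171 CPM in early cells of tamoxifen with rapamycin mice, against 4.26 and 31.6 CPM in those of tamoxifen mice. In Mpo-lacking cells it had 0 and 3.44 CPM in tamoxifen with rapamycin mice, against 0.441 and 45.1 CPM in tamoxifen mice. The fitted difference of effects was 6.16 (adjusted p = 3.58e-13), and against late rapamycin 10.4 (adjusted p = 0.000739), where the late rapamycin mice held 1 UMI in early cells. Neither fitted value is a bound.

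Cd74, the class II invariant chain, had 3.24 and 51.4 CPM in early cells of late rapamycin mice, against 5.68 and 5.93 CPM in those of tamoxifen mice. In Mpo-lacking cells it had 30.7 and 21.9 CPM in late rapamycin mice, against 34.0 and 47.9 CPM in tamoxifen mice. The effects differed by 3.17 (adjusted p = 0.00292), and by -2.58 for tamoxifen with rapamycin against late rapamycin (adjusted p = 0.0276). Of 147 Cd74 UMIs in 36 early cells, 100 were in 1 cell of the late rapamycin mouse of day 2. H2-Aa, a class II chain, had 6.81 and 7.11 CPM in early cells of tamoxifen with rapamycin mice, against 1.08 and 30.6 CPM in those of late rapamycin mice. Its effects differed by -2.77 (adjusted p = 0.0124), and 56 of its 111 UMIs were in 1 cell of the late rapamycin mouse of day 2.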

How the results depend on the processing

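The groups hold 2 mice each, and an exact test cannot pass 0.05 at that size. For tamoxifen with rapamycin against tamoxifen, the 4 genes became 0 with DESeq2, 37 with no filter on low counts, 1 with at least 3 Mpo UMIs, and 8 to 19 with 1 mouse left out. For late rapamycin against tamoxifen, the 8 became 102 with no filter and 22 to 159 with 1 mouse left out. For tamoxifen with rapamycin against late rapamycin, the 16 became 6 with DESeq2, 130 with no filter and 21 to 168 with 1 mouse left out. Without the replicate block (the day) the counts were 3, 4 and 8, and the calls lost are named above. DESeq2 size factors and the stricter cell filter gave 4, 8 and 16. Against Elane-containing neighbours DESeq2 called 3135 genes. Against F13a1-containing neighbours, DESeq2 called 317, the fit with no replicate block 314, and fits with 1 mouse left out 416 (without the tamoxifen with rapamycin mouse of day 2) to 701 (without the late rapamycin mouse of day 1). The difference of differences passed for 12 genes (late rapamycin against tamoxifen) and 14 (tamoxifen with rapamycin against late rapamycin) with no filter, and for 6 in late rapamycin against tamoxifen with no replicate block for the cell kind difference. Leaving out mice was not run for it. The causes were not tested.

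With 1 mouse left out, the share of early cells among kept cells differed by -0.573 to 1.41 points for tamoxifen with rapamycin against tamoxifen (-0.00247 without the tamoxifen mouse of day 2) and by -2.22 to 0.360 points for late rapamycin against tamoxifen. Among cells with Mpo and Cd34, tamoxifen with rapamycin against late rapamycin ranged from -3.37 to 16.5 points. The share with division transcripts in tamoxifen with rapamycin against tamoxifen ranged from -7.32 to 3.28 points, and was 0.00765 points with at least 3 Mpo UMIs. Mcpt8 in tamoxifen with rapamycin against late rapamycin reversed to -0.33 without the 16 cells rich in basophil or class II transcripts, an alternative chosen after seeing the data. Of the other values of single genes, 2198 kept direction and side of the threshold, 170 newly passed, 104 no longer passed and 47 changed sign without passing.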

Other observations

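Gt(ROSA)26Sor, the transcript of the locus that commonly holds Cre reporters, was singled out after its values were seen. It had 29.2 and 21.6 CPM in tamoxifen with rapamycin mice, 46.8 and 22.0 CPM in late rapamycin mice and 2.86 and 9.90 CPM in tamoxifen mice. The adjusted p by edgeR were 0.307 for tamoxifen with rapamycin and 0.0804 for late rapamycin, each against tamoxifen, so neither passed.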
